A study of Mus musculus with 16 samples.

Results

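The cortex of 17-month-old mice was profiled for 10 genes that encode enzymes of fatty acid and myelin lipid synthesis: *Scd1*, *Scd2*, *Fasn*, *Acaca*, *Elovl1*, *Elovl5*, *Elovl7*, *Fads2*, *Fa2h* and *Ugt8a*. They were chosen by symbol from the 30389 genes of the deposited count tables, with no cut on their measured levels. The choice was made with earlier results of these data known. THY-Tau22 mice, which carry a mutant human tau transgene, were compared with WT littermates of both sexes, all on a background of crosses to C57Bl6/J, with no other treatment. By the labels there were 4 males of each genotype, 3 female WT mice and 5 female THY-Tau22 mice, with 1 Drop-seq library per mouse. The transgene is driven by the neuronal Thy1.2 promoter, so in this model the glial and vascular cells described below lie beside transgene-expressing neurons. Since 2952 of the 3000 cell barcodes labelled WT male replicate 3 recurred in the library labelled THY-Tau22 male replicate 4, under the opposite genotype, both were left out of all comparisons, which leaves 14 libraries, 5 of THY-Tau22 females and 3 of each other group. Levels are given as CPM, the unique molecular identifiers (UMIs) of a gene summed over the cells of a library, for every 1000000 UMIs of those cells.

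Fatty acid synthesis begins when acetyl-CoA carboxylase, encoded by *Acaca*, makes malonyl-CoA, which fatty acid synthase (*Fasn*) joins into palmitate. Elongases of the ELOVL family lengthen the chains: *Elovl1* and *Elovl7* act on saturated long and very long chains, and *Elovl5* on polyunsaturated ones. The stearoyl-CoA desaturases encoded by *Scd1* and *Scd2* place a double bond in saturated chains, and *Fads2* encodes the delta-6 desaturase of polyunsaturated fatty acid synthesis. Fatty acid 2-hydroxylase (*Fa2h*) and ceramide galactosyltransferase (*Ugt8a*) then give myelin its characteristic hydroxylated galactolipids. In brain, oligodendrocytes wrap axons in this lipid-rich membrane, and astrocytes are known as a source of polyunsaturated fatty acids for other cells.

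The submitters' processing notes name mm10 (GRCm38), on which GENCODE M21 places all 10 as protein-coding genes. The desaturases lie on 1 chromosome, *Scd2* at chr19:44293674-44306864 on the plus strand, *Scd1* at chr19:44394455-44407879 on the minus strand and *Fads2* at chr19:10062765-10101746 on the minus strand. *Fasn* lies at chr11:120805846-120824547 on the minus strand and *Acaca* at chr11:84129672-84401651 on the plus strand. The elongases lie on the plus strands of chr4:118428093-118432953 (*Elovl1*), chr9:77917364-77984519 (*Elovl5*) and chr13:108214404-108285683 (*Elovl7*). *Fa2h* lies at chr8:111345135-111393824 and *Ugt8a* at chr3:125865271-125938619, both on the minus strand. Exons of *Elovl1* overlap those of *Cdc20* on the opposite strand and exons of *Scd2* overlap *Mir5114*. The counting strand was not given in the sources used here, so such reads may not be told apart. Within the last 500 bases of their coding transcripts, 22.3% of the 60-base windows of *Acaca* also occur in *Gm5182*, and none of the windows of the other 9 genes occur in another gene, so *Acaca* counts are uncertain.

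RefSeq promoter sequences (GRCm38.p6, 300 bases around the start of transcription) were matched for 7 of the 10 genes, not for *Scd1*, *Scd2* and *Fa2h*. The promoters of 3 are shown because the levels of these genes took opposite patterns: *Elovl5* and *Fads2*, highest in astrocyte-like cells, and *Ugt8a*, highest in oligodendrocyte-like cells. Capitals mark the CCAAT box (CCAAT, or ATTGG on the other strand), the GC box (GGGCGG, or CCGCCC on the other strand) and the E-box (CACGTG, its own reverse). They are the promoters at chr9:77917115-77917414 (plus strand), chr19:10101454-10101753 (minus strand) and chr3:125938603-125938902 (minus strand).
Elovl5: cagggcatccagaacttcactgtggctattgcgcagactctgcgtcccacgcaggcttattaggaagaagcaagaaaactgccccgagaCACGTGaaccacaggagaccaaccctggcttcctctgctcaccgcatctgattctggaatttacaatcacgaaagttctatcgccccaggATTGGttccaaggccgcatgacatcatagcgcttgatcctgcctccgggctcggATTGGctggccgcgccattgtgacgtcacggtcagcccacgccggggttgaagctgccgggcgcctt
Fads2: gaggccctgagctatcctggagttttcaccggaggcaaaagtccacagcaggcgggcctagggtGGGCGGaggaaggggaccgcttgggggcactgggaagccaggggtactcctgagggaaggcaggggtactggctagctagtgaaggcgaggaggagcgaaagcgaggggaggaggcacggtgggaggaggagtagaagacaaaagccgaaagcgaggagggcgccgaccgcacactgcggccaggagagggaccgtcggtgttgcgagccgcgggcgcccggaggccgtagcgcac
Ugt8a: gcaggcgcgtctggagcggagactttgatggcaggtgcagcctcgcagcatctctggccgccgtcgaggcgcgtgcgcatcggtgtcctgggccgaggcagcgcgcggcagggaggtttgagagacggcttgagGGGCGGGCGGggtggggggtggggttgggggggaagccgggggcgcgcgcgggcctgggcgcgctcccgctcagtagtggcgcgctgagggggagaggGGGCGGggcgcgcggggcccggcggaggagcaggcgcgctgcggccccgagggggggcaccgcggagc
The *Elovl5* window held 2 CCAAT boxes and 1 E-box and no GC box. The *Fads2* window held 1 GC box and the *Ugt8a* window 3 GC boxes, of which 2 overlap. Of 32851 mouse promoters of 300 bases, 37.4% held a CCAAT box, 35.7% a GC box and 7.15% an E-box, so these letters are common and mark no binding site by themselves.

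The 16 tables held 1041675 to 2237505 UMIs each. Barcodes with 200 to 7000 detected genes were kept, 28530 of 48000, which left 1121 to 2526 cells and 755945 to 2089367 UMIs a library in the 14 used. Cells were clustered without the 10 genes and without the other genes of their pathway, and clusters were named by marker genes, so that the levels below did not define the classes. The 14 libraries gave 4332 oligodendrocyte-like, 1111 oligodendrocyte precursor (OPC)-like, 4531 astrocyte-like, 6779 microglia-like, 3334 endothelial-like and 1217 neuron-like cells. A single UMI was worth 0.479 to 1.32 CPM in the sum over all cells, 2.93 to 7.71 CPM in oligodendrocyte-like cells, and up to 52.5 CPM in OPC-like cells, where values are coarse. An unnamed cluster, led by *Kif5a*, *Gm10800* and oligodendrocyte genes such as *Mobp* and with 37.4% of its cells marked as doublets, made up 28.4% of the cells of THY-Tau22 male replicate 3 and 1.02% to 5.53% of those of the other 13 libraries. In the 10 genes' sums over all cells these cells are included.

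The genes that start fatty acid synthesis were spread over several classes. *Fasn* had its highest mean in astrocyte-like cells, from 27.7 CPM in the lowest library through a median of 72.2 to 105 CPM in the highest, with a mean of 73.7 ± 18.3 (SD, n = 14). OPC-like cells had 51.2 ± 35.1 CPM and oligodendrocyte-like cells 46.0 ± 19.7. Neither the step from astrocyte-like to OPC-like cells (adjusted p = 0.131) nor the one from OPC-like to oligodendrocyte-like cells (adjusted p = 0.869) passed an exact two-sided sign-flip permutation test of log2(CPM + 10). Astrocyte-like and oligodendrocyte-like cells, not next to each other in this order, were not compared. Microglia-like and endothelial-like cells had 7.92 ± 5.27 and 7.62 ± 14.4 CPM of *Fasn*. *Acaca* had nearly the same mean in 4 classes, 35.9 ± 13.1 CPM in oligodendrocyte-like, 35.2 ± 35.3 in OPC-like, 33.5 ± 23.9 in neuron-like and 33.2 ± 14.0 in astrocyte-like cells. No step between neighbours among these 4 passed the test (adjusted p = 0.377 to 0.832), and other pairs were not compared. The step from astrocyte-like down to endothelial-like cells, at 10.8 ± 9.42 CPM, held in 11 of 14 libraries (adjusted p = 0.00458, exact sign-flip permutation test).

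*Scd2*, the main stearoyl-CoA desaturase of brain, had a clear order of classes. In oligodendrocyte-like cells it ran from 2735 through a median of 3400 to 4134 CPM, with a mean of 3391 ± 413 (SD, n = 14). Astrocyte-like cells came next with 1038 to 1810 CPM and a mean of 1359 ± 239, so the ranges of both classes lay apart in these libraries. The paired difference on the log2(CPM + 10) scale was 1.32 ± 0.29 (SD), with oligodendrocyte-like cells higher in 14 of 14 libraries (exact sign-flip permutation test, p = 0.000122, the smallest it can give, adjusted p = 0.000763). OPC-like cells followed at 759 ± 208 CPM and neuron-like cells at 381 ± 186, each step past the test (adjusted p = 0.00136 and 0.00277). Endothelial-like and microglia-like cells were lowest, at 132 ± 58.0 and 117 ± 64.7 CPM, and the difference between them did not pass the test (adjusted p = 0.162). Thinned to 300 UMIs a cell, 61.5% ± 4.95 of oligodendrocyte-like cells held at least 1 *Scd2* UMI, against 31.5% ± 4.07 of astrocyte-like and 3.44% ± 1.79 of microglia-like cells (4294, 4442 and 6425 cells). Unthinned, these shares were 81.9%, 50.7% and 7.46%, at median depths of 571.5, 550 and 503 UMIs.

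*Scd1*, which encodes the desaturase best known from liver and fat, was detected at far fewer UMIs but in the same leading classes. Oligodendrocyte-like cells ran from 64.6 through a median of 102 to 183 CPM (mean 112 ± 33.6, n = 14) and astrocyte-like cells from 19.1 through 62.3 to 134 CPM (mean 68.8 ± 28.4). The ranges overlapped, but within libraries oligodendrocyte-like cells were higher in 11 of 14 (difference 0.67 ± 0.65 on the log2(CPM + 10) scale, exact sign-flip permutation test, adjusted p = 0.0106). With at least 500 detected genes a cell the *Scd1* difference was 0.24 and no longer past the test (adjusted p = 0.800). Astrocyte-like cells were above OPC-like cells (24.2 ± 37.4 CPM) in 12 of 14 libraries (adjusted p = 0.00244). From OPC-like through neuron-like and endothelial-like to microglia-like cells, no step between neighbours passed the test (adjusted p = 0.317 to 0.869). Other pairs of these classes were not compared.

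The delta-6 desaturase gene *Fads2* was found mainly in astrocyte-like cells. It ran there from 10.4 through a median of 40.2 to 79.5 CPM (mean 45.0 ± 25.2, n = 14). No library gave 0 there, and astrocyte-like cells were higher than OPC-like cells in 14 of 14 libraries, by 1.98 ± 1.09 on the log2(CPM + 10) scale (exact sign-flip permutation test, adjusted p = 0.000763). With at least 500 detected genes a cell the *Fads2* difference was 0.89 and no longer past the test (adjusted p = 0.260). In the other 5 classes its means were 0.332 to 3.50 CPM and 8 to 13 of the 14 libraries had no UMI. No step between neighbours among these 5 classes passed the test (adjusted p of 0.674 or more), and other pairs were not compared. In oligodendrocyte-like cells a total of 3 *Fads2* UMIs was counted over the 14 libraries, each in a different THY-Tau22 female.

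The 3 elongases each took a different pattern. *Elovl5*, the polyunsaturated chain elongase, was highest in astrocyte-like cells, at 175 through a median of 286 to 468 CPM (mean 295 ± 93.3, n = 14). Oligodendrocyte-like cells followed at 38.6 through 115 to 190 CPM (mean 117 ± 51.0), and were lower in 14 of 14 libraries (difference 1.33 ± 0.39 on the log2(CPM + 10) scale, exact sign-flip permutation test, adjusted p = 0.000763). They were in turn above OPC-like cells, at 57.0 ± 45.2 CPM (adjusted p = 0.0139), while OPC-like and endothelial-like cells (48.7 ± 20.8 CPM) could not be ordered (adjusted p = 0.832).

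*Elovl7*, whose product elongates saturated chains, had a pair of high classes. Endothelial-like cells ran from 158 through a median of 226 to 325 CPM (mean 227 ± 49.7, n = 14) and oligodendrocyte-like cells from 159 through 226 to 254 CPM (mean 218 ± 28.1). The ranges overlapped almost wholly, endothelial-like cells were higher in 6 of 14 libraries, and the difference was 0.04 ± 0.37 on the log2(CPM + 10) scale (exact sign-flip permutation test, adjusted p = 0.820). The drop from oligodendrocyte-like to OPC-like cells, at 34.5 ± 34.7 CPM, held in 14 of 14 libraries (adjusted p = 0.000763). Mural cells, the pericytes and smooth muscle of vessel walls, also held *Elovl7*, with 166 UMIs over the 14 libraries or 144 CPM (95% Poisson interval 123 to 168), and ependymal-like cells held 20 UMIs or 105 CPM (64.0 to 162). These intervals cover counting error only.

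*Elovl1*, the elongase of very long saturated chains, was highest in oligodendrocyte-like cells, from 20.5 through a median of 69.7 to 143 CPM (mean 75.8 ± 31.6, n = 14). Microglia-like cells followed at 30.7 ± 15.9 CPM, lower in 14 of 14 libraries (difference 1.08 ± 0.53 on the log2(CPM + 10) scale, exact sign-flip permutation test, adjusted p = 0.000763). The steps from microglia-like to endothelial-like (26.9 ± 17.8 CPM) and on to astrocyte-like cells (20.7 ± 10.1 CPM) did not pass the test (adjusted p = 0.279 and 0.475). Microglia-like and astrocyte-like cells were not compared. Fibroblast-like cells, a small class of 148 cells, held 20 UMIs or 74.9 CPM (95% Poisson interval 45.8 to 116).

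The galactolipid genes were highest in oligodendrocyte-like cells, followed by OPC-like cells. *Ugt8a* ran in oligodendrocyte-like cells from 627 through a median of 713 to 878 CPM (mean 736 ± 90.5, n = 14), and in OPC-like cells from 0 through 129 to 262 CPM (mean 126 ± 63.3). *Fa2h* ran from 188 through 308 to 498 CPM in oligodendrocyte-like cells (mean 322 ± 88.3) and from 0 through 65.1 to 105 CPM in OPC-like cells (mean 56.7 ± 38.5). For both genes the ranges lay apart and oligodendrocyte-like cells were higher in 14 of 14 libraries, by 2.72 ± 1.22 for *Ugt8a* and 2.65 ± 1.28 for *Fa2h* on the log2(CPM + 10) scale (exact sign-flip permutation test, adjusted p = 0.000763 for each). OPC-like cells in turn exceeded neuron-like cells, at 35.0 ± 64.4 CPM of *Ugt8a* and 8.82 ± 10.3 CPM of *Fa2h* (adjusted p = 0.00610 and 0.00563). In astrocyte-like, microglia-like and endothelial-like cells the means were 2.48 to 10.3 CPM and no step between neighbours passed the test.

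**Figure D1:**
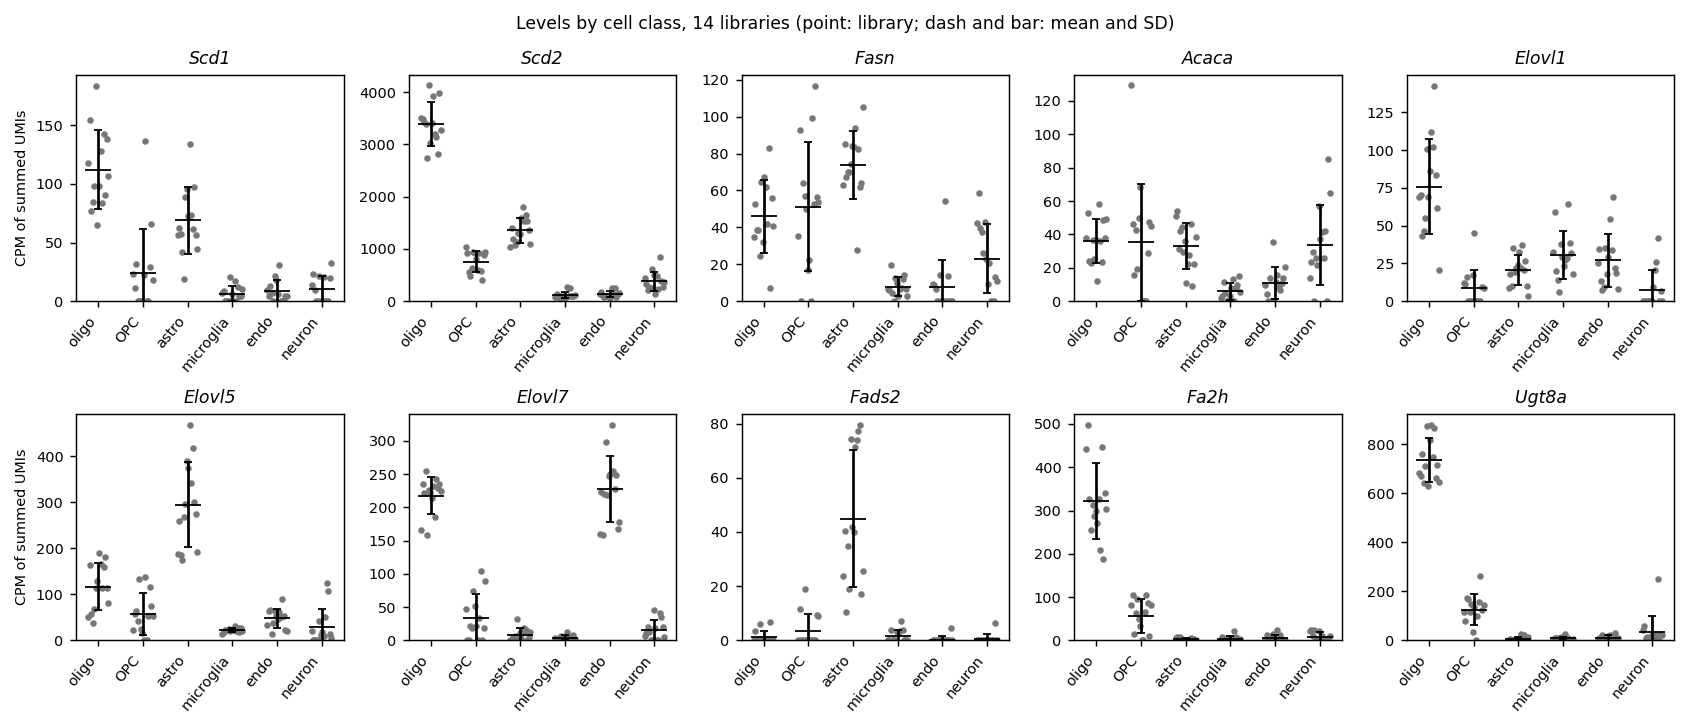
CPM of summed UMIs (y axis, linear, from 0, a separate scale for each gene) in 6 classes (x axis) for the 10 genes, with 1 point per library and the mean ± SD of 14 libraries. *Scd2*, *Fa2h* and *Ugt8a* stand highest in oligodendrocyte-like cells, *Elovl5* and *Fads2* in astrocyte-like cells, and *Elovl7* in both oligodendrocyte-like and endothelial-like cells.

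Droplets also take up free RNA, so each level was set beside that of the 10 oligodendrocyte markers used to name the classes. The markers stood in astrocyte-like cells at 0.782% to 5.44% of their oligodendrocyte-like level (median 1.20%), in microglia-like cells at 0.805% to 3.15% (median 1.31%), and in neuron-like cells at 4.89% to 7.98% (median 5.39%). *Ugt8a* and *Fa2h* were at 0.700% and 0.771% of their oligodendrocyte-like level in astrocyte-like cells and at 1.13% and 1.25% in microglia-like cells. These levels, within or under the markers' range, cannot be told from background. *Elovl7* in astrocyte-like cells (4.09%) and microglia-like cells (2.01%) also lay within the markers' range. *Scd2* in microglia-like cells stood at 3.45%, just over the range. In endothelial-like cells *Scd2* stood at 3.88%, within a range of 0.727% to 12.1%, whose top is the marker *Mal*. It lay above the next marker there, *Mobp* at 3.29%.

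In OPC-like cells, where the markers reached 0.878% to 9.34%, *Ugt8a* stood at 17.1% and *Fa2h* at 17.6%, above all 10 markers, *Mbp* at 6.34% included. *Scd2* in OPC-like cells stood at 22.4%. In neuron-like cells *Scd2* stood at 11.2% and *Acaca* at 93.3%, above the markers, whereas *Ugt8a* (4.77%) and *Fa2h* (2.74%) were under their range. *Scd1*, *Scd2*, *Fasn*, *Acaca*, *Elovl1*, *Elovl5* and *Fads2* in astrocyte-like cells all stood well over the markers' range, at 27.3% or more.

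**Figure D2:**
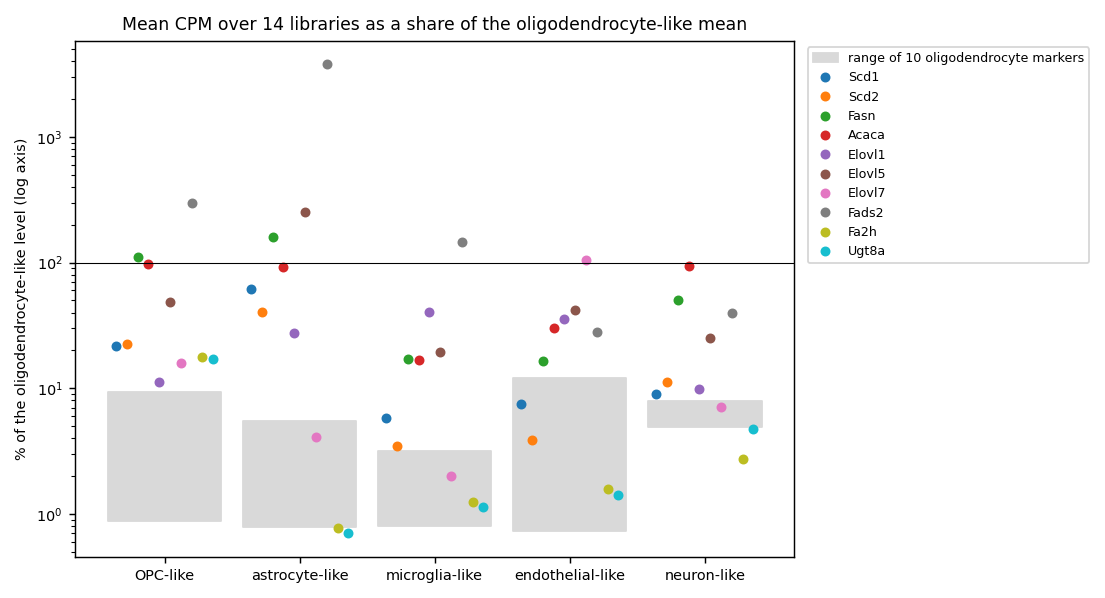
Mean CPM over 14 libraries in each of 5 classes (x axis) as a percent of the oligodendrocyte-like mean (y axis, log), with 1 coloured point per gene and a grey band for the range of the 10 oligodendrocyte markers. Points within or under the band are no higher than the highest marker share of that class, as *Fa2h* and *Ugt8a* are in all classes but OPC-like cells. In endothelial-like cells the band reaches 12.1% through *Mal*, and the next marker is *Mobp* at 3.29%.

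At a finer clustering, oligodendrocyte-like cells fell into a cluster of 3033 shallower cells (median 500 UMIs) and one of 1281 deeper cells (median 917 UMIs). All but *Fads2* had a higher mean in the deeper cluster. *Ugt8a* had 688 ± 102 and 774 ± 136 CPM (SD, n = 14), *Fa2h* 316 ± 84.3 and 326 ± 99.0, and *Scd2* 3219 ± 450 and 3564 ± 430, with the deeper cluster higher in 9, 7 and 12 of 14 libraries. *Elovl7* had 199 ± 34.0 and 235 ± 68.3 CPM, higher there in 10 of 14, and *Acaca* 32.1 ± 18.7 and 43.9 ± 27.3, higher in 8 of 14. Because the clusters were cut from the same cells, these values are a description without a test.

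The genes whose levels over the 84 class and library values most resembled each enzyme were found by Pearson's r of log2(CPM + 10) among 6636 genes, and are given as a description, since classes of a library share its depth. Among the 3 genes most like *Ugt8a* were *Enpp2* (r = 0.882) and *Gjb1* (0.867). Among the 3 most like *Fa2h* were *Enpp6* (0.888) and *1700047M11Rik* (0.875), and *Ugt8a* and *Fa2h* had r = 0.887 with each other. *Scd2* was most like *Gpm6b* (0.916), *Fez1* (0.895) and *Cmtm5* (0.892), and *Scd1* like *Daam2* (0.813), *Gprc5b* (0.801) and *Csrp1* (0.788). *Fads2* was most like *C030005K06Rik* (0.889), *Entpd2* (0.887) and *Tst* (0.880), and *Elovl5* like the glutathione transferase gene *Gstm1* (0.816), *Apln* (0.812) and *Tst* (0.764). *Elovl7* was most like *Clic4* (0.870), *Gng11* (0.856) and *Ndrg1* (0.850). *Elovl1* (*Neat1* 0.779, *Pmp22* 0.739, *Rhog* 0.714) and *Fasn* (*Dtna* 0.738, *Mboat2* 0.737, *Hepacam* 0.733) had weaker likenesses. The weakest were those of *Acaca*, to *Arhgap21* (0.658), *Lss* (0.614) and *Glrb* (0.608).

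The comparison of THY-Tau22 with WT mice asked whether these enzymes differ with the transgene in males, in females, on average over the sexes, or differently between the sexes. No enzyme passed the test, which asked for an edgeR adjusted p under 0.05 together with a log2 fold change of 0.5 or more in either direction, in any of the 7 levels (all cells and 6 classes) and 4 contrasts. DESeq2 also called none of the enzymes. Of all genes it called 15 of 11643 in all cells of males. In oligodendrocyte-like cells it called 37 of 3987 genes in males and 23 in the male minus female difference. These counts were 90 and 21 of 5036 in microglia-like, 4 and 2 of 3981 in astrocyte-like, and 7 and 15 of 3352 in endothelial-like cells. Few genes of any kind were called by edgeR, whose counts were 0% of 11643 genes in all cells in each of the 4 contrasts. In oligodendrocyte-like cells they were 0.0752% in males, 0.0251% in females, 0% over the sexes and 0.326% in the male minus female difference. OPC-like cells had 0.081% in males and over the sexes and 0% in the other contrasts, astrocyte-like and neuron-like cells 0% in each, and endothelial-like cells 0.0597% in males and 0% elsewhere. Microglia-like cells had 0.616% in males, 0.0199% over the sexes and 0% elsewhere. All 10 genes had enough counts to be tested in all cells, and 9 in oligodendrocyte-like cells, without *Fads2*. Astrocyte-like cells allowed a test of 5 (*Scd1*, *Scd2*, *Fasn*, *Elovl5* and *Fads2*), microglia-like and endothelial-like cells of 2 each, and OPC-like and neuron-like cells of *Scd2* only.

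In the sum over all cells, fewer cells of a class and less RNA of a gene in each cell cannot be told apart. Of the 10 genes, 2 had an unadjusted p under 0.05 in males, both higher in THY-Tau22, where 15.4% of all genes tested did. The other counts were 0 of 10 in females (1.74% of all genes), 1 of 10 over the sexes (4.22%) and 2 of 10 in the male minus female difference (12.7%). Log2 fold changes of the 10 genes had a median of 0.34 in males, from -0.04 to 1.04, and of -0.11 in females, from -0.36 to 0.03, where the medians of all genes tested were 0.01 and -0.01. Low unadjusted p values were thus common among all genes in males, and these counts show nothing particular to the enzymes.

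*Elovl5* had the smallest p of the 10 genes in all cells of males. It was at 59.8, 68.1 and 47.8 CPM in the 3 WT males and at 99.2, 102 and 147 CPM in the 3 THY-Tau22 males, so the groups did not overlap. In WT females it was at 112, 159 and 67.7 CPM and in THY-Tau22 females at 97.3, 86.5, 122, 111 and 96.9 CPM, within the WT range. The edgeR log2 fold change in males was 0.79 ± 0.24 (SE), with an adjusted p of 0.233. For females it was -0.07 ± 0.21 (adjusted p = 1.000). The male minus female difference was 0.87 ± 0.32 (adjusted p = 0.305).

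The male groups also did not overlap for *Elovl1* and *Fads2*. *Elovl1* was at 30.2, 18.8 and 18.2 CPM in WT males and at 45.8, 31.6 and 46.6 CPM in THY-Tau22 males (log2 fold change 0.64 ± 0.40, edgeR adjusted p = 0.436). WT females spread widely for it, at 51.6, 64.2 and 10.0 CPM, around the THY-Tau22 females at 38.5, 19.6, 37.7, 39.7 and 25.6 CPM. *Fads2* was at 3.83, 3.59 and 5.69 CPM in WT males and at 10.5, 6.47 and 13.0 CPM in THY-Tau22 males, from 4 to 19 UMIs a library (log2 fold change 1.04 ± 0.51, adjusted p = 0.327). In females it was at 13.2, 17.4 and 5.89 CPM in WT and at 8.49, 5.77, 9.08, 17.2 and 5.64 CPM in THY-Tau22 mice. Non-overlapping male groups, with THY-Tau22 higher, were found for 3 of the 10 genes. Of all genes, 29.1% had them in either direction and 22.4% with THY-Tau22 higher. Non-overlapping female groups were found for 0 of 10 genes, where 1.19% of all genes had them. Plain CPM of the median gene was 0.19 higher on the log2 scale in THY-Tau22 than in WT males, a shift that the library scaling in edgeR takes out. With CPM scaled in that way 2 of the 10 genes, *Elovl5* and *Fads2*, still did not overlap. Of all genes, 27.7% did not in either direction and 14.8% did not with THY-Tau22 higher. The *Elovl1* groups then overlapped.

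*Scd1* was at 35.4, 30.5 and 23.9 CPM in WT males and at 71.6, 31.6 and 71.3 CPM in THY-Tau22 males, where 1 THY-Tau22 library lay within the WT range. Its log2 fold change was 0.74 ± 0.32 (edgeR adjusted p = 0.287). *Scd2* was at 878, 1002 and 840 CPM in WT males and at 1456, 907 and 1336 CPM in THY-Tau22 males, again with 1 library within the WT range (0.26 ± 0.23, adjusted p = 0.590). *Ugt8a* had the same layout, at 113, 163 and 122 CPM against 259, 136 and 201 CPM (0.41 ± 0.25, adjusted p = 0.424). In each of these genes THY-Tau22 male replicate 2 was the library near WT. *Fa2h*, *Fasn*, *Acaca* and *Elovl7* had log2 fold changes of -0.04 to 0.07 in males, within their SE of 0.20 to 0.33.

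**Figure D3:**
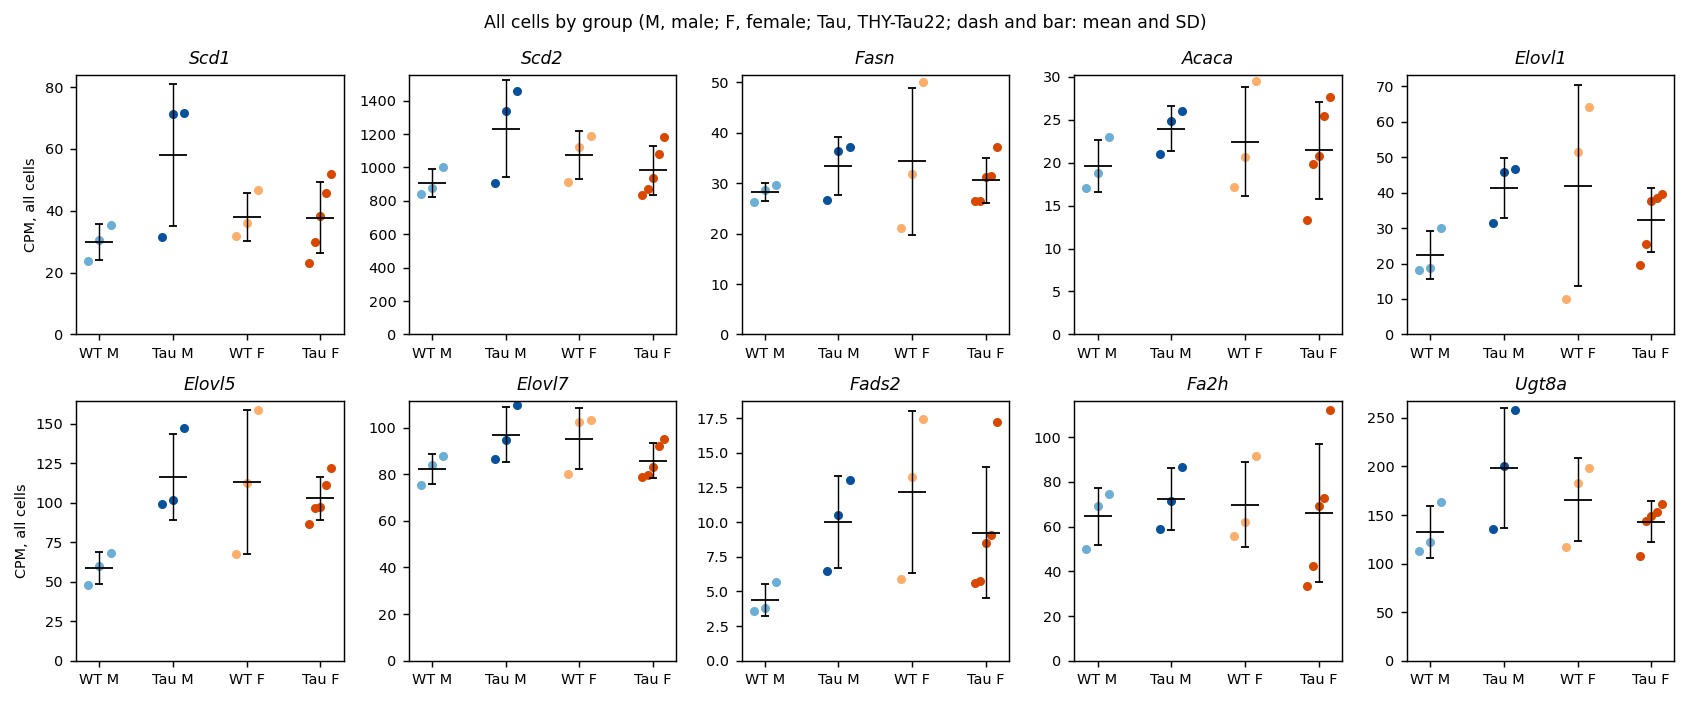
CPM in all cells (y axis, linear, from 0, a separate scale for each gene) for the 10 genes in the 4 groups of mice, split by genotype and sex, with 1 point per library and the mean ± SD (n = 3, 3, 3 and 5). Male groups lie apart for *Elovl1*, *Elovl5* and *Fads2*, and female groups overlap for all 10 genes.

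Library measures moved with the male groups. The median mitochondrial UMI share of a cell was 0.351% to 0.571% in WT males and 0.889% to 1.33% in THY-Tau22 males, which do not overlap (exact permutation test, p = 0.1, the smallest that 3 against 3 allows). In WT females it ran from 0.394% to 1.23%. The 3 WT males and WT female replicate 3 had the 4 lowest shares, and the same 4 libraries had the lowest *Elovl5* in all cells and in astrocyte-like cells. WT female replicate 3 and THY-Tau22 female replicate 5 are the only libraries with another title tag (MB22), of unstated meaning. The part of these measures in the *Elovl5* values was not tested.

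Oligodendrocyte-like cells made up 14.6%, 18.6% and 15.6% of the cells of WT males and 27.8%, 18.7% and 14.6% of those of THY-Tau22 males. The means, 16.3% ± 2.10 and 20.4% ± 6.73 (SD, n = 3), differed by 4.11 percentage points (exact permutation test, p = 0.400). In females the means were 17.8% ± 4.18 (n = 3) and 17.6% ± 3.85 (n = 5; exact permutation test, p = 0.964). The summed level of the 10 oligodendrocyte markers in all cells was 19340 to 30726 CPM in WT males and 22407 to 37534 CPM in THY-Tau22 males, and all 10 markers were above 0 in each library. Astrocyte-like cells made up 17.2% to 19.4% of the cells of WT males and 14.1% to 16.2% of those of THY-Tau22 males, which do not overlap (exact permutation test, p = 0.1, the smallest it can give). The astrocyte-like share was thus lower in the group with the higher *Elovl5* and *Fads2* of all cells. In THY-Tau22 male replicate 3, however, 29.9% of the cells were unnamed, which lowers its share of every named class. The summed astrocyte markers in all cells overlapped, at 5582 to 6214 CPM in WT males and 5160 to 7407 CPM in THY-Tau22 males (exact permutation test, p = 0.900). The part of the astrocyte-like share in the *Elovl5* and *Fads2* values was not tested.

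Over the 14 libraries, *Ugt8a* in all cells followed the oligodendrocyte-like share most closely of the 10 genes. Its Pearson's r was 0.723 (permutation p = 0.00433, adjusted over the 10 genes 0.0433) and its Spearman's rho 0.618 (permutation p = 0.0208, adjusted 0.208). Without the 2 libraries farthest from the median share, THY-Tau22 male replicate 1 and THY-Tau22 female replicate 3, r was 0.302, so the relation rests on them. Within the sexes r was 0.759 over 6 males and 0.675 over 8 females. *Elovl7* had r = 0.601 (permutation p = 0.0201, adjusted 0.101; rho = 0.521, permutation p = 0.0583, adjusted 0.292), or 0.236 without those 2 libraries. For *Scd2*, which also has an astrocyte share, r was 0.529 (permutation p = 0.0522, adjusted 0.174; rho = 0.389, permutation p = 0.170, adjusted 0.509), or -0.01 without those 2 libraries. The other 7 genes had r from -0.09 to 0.43, with adjusted permutation p values of 0.325 to 0.954.

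Within oligodendrocyte-like cells, no genotype difference of *Ugt8a*, *Scd2* or *Fa2h* passed the test. Plain CPM of the median gene was 0.22 higher on the log2 scale in THY-Tau22 than in WT males there, so the fold changes below, which take out that shift, can lie under the ratio of the printed CPM. *Ugt8a* was at 681, 761 and 640 CPM in WT males, 873, 627 and 878 CPM in THY-Tau22 males, 748, 867 and 647 CPM in WT females, and 670, 710, 817, 661 and 716 CPM in THY-Tau22 females. The groups overlapped in both sexes, with log2 fold changes of -0.02 ± 0.23 in males and -0.02 ± 0.21 in females (edgeR adjusted p = 0.977 and 0.999). *Scd2* was at 3506, 3423 and 3385 CPM in WT males and 4134, 3031 and 3931 CPM in THY-Tau22 males (-0.11 ± 0.24, adjusted p = 0.841), and at 3202, 3137 and 3272 CPM in WT females and 3488, 2735, 3414, 2826 and 3990 CPM in THY-Tau22 females (0.08 ± 0.22, adjusted p = 0.997). *Fa2h* was at 443, 327 and 255 CPM in WT males and 288, 299.9 and 327 CPM in THY-Tau22 males, overlapping groups whose log2 fold change was -0.40 ± 0.30 (adjusted p = 0.497). Its value for females was 0.10 ± 0.27, and the male minus female difference was -0.50 ± 0.41 (adjusted p = 0.997 and 0.553). *Scd1*, *Fasn*, *Acaca* and *Elovl7* had log2 fold changes of -0.10 to 0.32 in males and of -0.24 to 0.15 in females.

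*Elovl5* was the exception in size, though it did not pass the test there either. In oligodendrocyte-like cells it was at 51.9, 57.8 and 38.6 CPM in WT males, from 5 to 15 UMIs a library, and at 115, 129 and 166 CPM in THY-Tau22 males, from 28 to 40 UMIs. The groups did not overlap, and the log2 fold change was 1.21 ± 0.37 (edgeR adjusted p = 0.110). In females it was at 114, 160 and 81.9 CPM in WT and at 165, 67.3, 190, 181 and 114 CPM in THY-Tau22 mice, overlapping groups with a log2 fold change of 0.33 ± 0.30 (adjusted p = 0.997). Over both sexes the log2 fold change was 0.77 ± 0.24 (adjusted p = 0.892). *Elovl5* was the only 1 of 9 genes with an unadjusted p under 0.05 in males, where 17.4% of all genes had one, and over the sexes, where 5.27% did. None of the 9 did in females (2.93% of all genes) or in the male minus female difference (17.8%). *Elovl1* also had male groups that did not overlap, 69.15, 43.3 and 46.3 CPM against 101, 69.21 and 112 CPM (0.57 ± 0.41, adjusted p = 0.485), where the nearest libraries were all but tied. These were 2 of 9 genes, both higher in THY-Tau22. Of all genes, 28.4% had non-overlapping males in either direction and 21.3% with THY-Tau22 higher. None of the 9 had non-overlapping females (2.08% of all genes). Under the library scaling of edgeR the *Elovl1* groups overlapped. That left 1 of 9 genes, *Elovl5*, where 26.8% of all genes had non-overlapping males in either direction and 13.6% with THY-Tau22 higher.

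**Figure D4:**
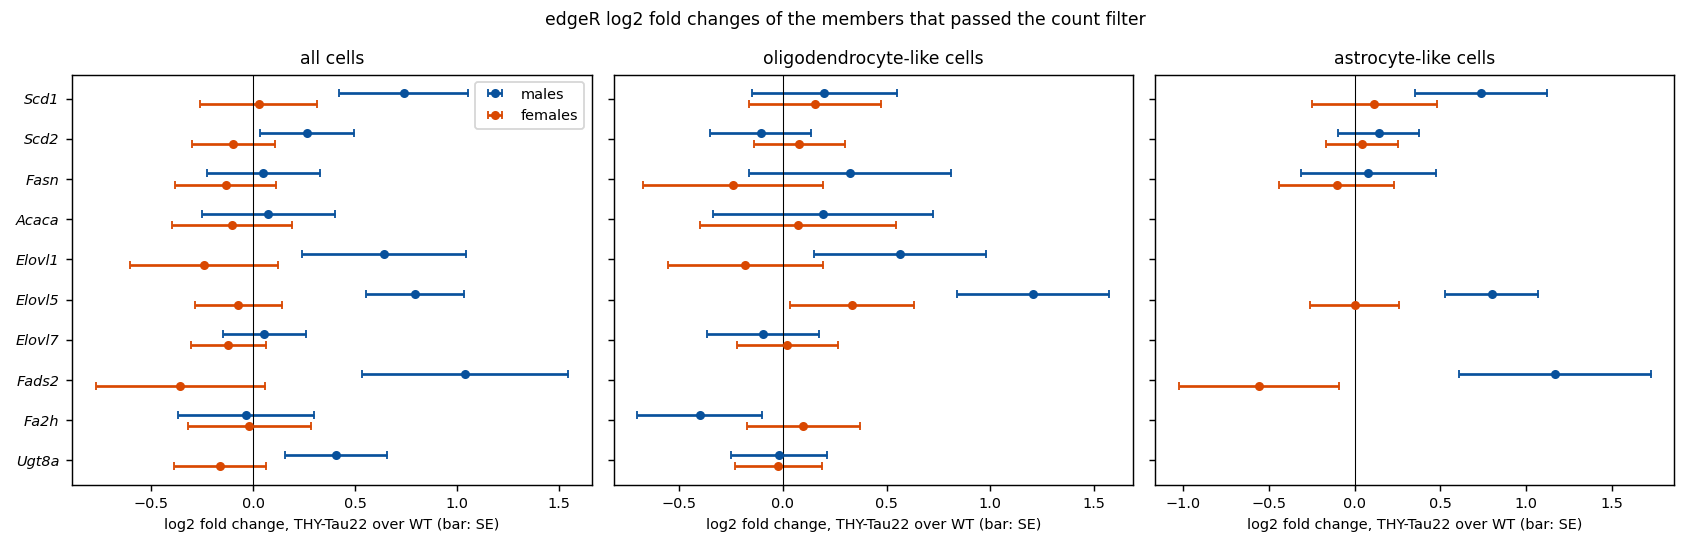
edgeR log2 fold change of THY-Tau22 over WT (x axis, bars ± SE) for each gene with enough counts (y axis) in males (blue) and females (orange), in all cells, oligodendrocyte-like cells and astrocyte-like cells. *Elovl5* lies at 0.79, 1.21 and 0.80 in males of the 3 panels and at -0.07, 0.33 and 0.00 in females, and no gene passed the test.

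In astrocyte-like cells, all 5 genes tested had male groups that did not overlap in plain CPM, with THY-Tau22 higher. Of all genes, 22.2% had such male groups with THY-Tau22 higher, and 27.6% in either direction. Plain CPM of the median gene was 0.27 higher on the log2 scale in THY-Tau22 males there. With CPM scaled as in edgeR 3 of the 5 did not overlap (*Scd1*, *Elovl5* and *Fads2*), again with THY-Tau22 higher. Of all genes, 13.1% did not overlap in that direction, and 26.6% in either. *Elovl5* was at 188, 187 and 175 CPM in WT males and at 297, 390 and 468 CPM in THY-Tau22 males. Its log2 fold change was 0.80 ± 0.27 in males (edgeR adjusted p = 0.156) and 0.00 ± 0.26 in females, where WT had 341, 418 and 191 CPM and THY-Tau22 260, 268, 374, 300.2 and 276 CPM. The male minus female difference was 0.80 ± 0.36 (adjusted p = 0.244).

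*Fads2* in astrocyte-like cells was at 23.9, 10.4 and 35.0 CPM in WT males, from 2 to 8 UMIs, and at 74.2, 41.96 and 71.3 CPM in THY-Tau22 males, from 7 to 16 UMIs. Its log2 fold change was 1.17 ± 0.56 in males (edgeR adjusted p = 0.278). In WT females it was at 73.7, 77.4 and 25.5 CPM and in THY-Tau22 females at 40.3, 19.1, 40.0, 79.5 and 17.2 CPM, with a log2 fold change of -0.56 ± 0.47 (adjusted p = 0.997). The male minus female difference was 1.73 ± 0.73 (adjusted p = 0.220). *Scd1* was at 56.8, 57.0 and 41.99 CPM in WT males and at 89.1, 95.9 and 134 CPM in THY-Tau22 males (0.74 ± 0.39, adjusted p = 0.317). *Scd2* had log2 fold changes of 0.14 ± 0.24 in males and 0.04 ± 0.21 in females, and *Fasn* of 0.08 ± 0.39 and -0.11 ± 0.34. An unadjusted p under 0.05 was found for 2 of 5 genes in males (17% of all genes), 0 of 5 in females (3.09%), 1 of 5 over the sexes (4.4%) and 2 of 5 in the male minus female difference (17.7%). No gene of the 5 had non-overlapping females, where 1.83% of all genes did. Oligodendrocyte markers in astrocyte-like cells summed to 778 to 1022 CPM in WT males and 1055 to 2769 CPM in THY-Tau22 males, and their part in these values was not tested.

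WT female replicate 3 decided the comparison between the sexes. Without it, *Elovl5* in all cells had a male minus female difference of 1.07 ± 0.30 (edgeR adjusted p = 0.0299), *Elovl1* in all cells one of 1.36 ± 0.40 (adjusted p = 0.0344), and *Fads2* in astrocyte-like cells one of 2.07 ± 0.72 (adjusted p = 0.0419), each then past the test. Without both MB22 libraries, *Elovl5* in all cells was at 1.06 ± 0.32 (adjusted p = 0.0494). With all 14 libraries none of these differences passed the test, nor did any with the title tag as a term in the fit, where *Elovl5* in all cells was at 0.88 ± 0.30 (adjusted p = 0.140). Without WT female replicate 3, 9 other pathway genes were also called for this difference in all cells and 7 in astrocyte-like cells. The share of all genes called in these fits is not given here, so these calls show nothing particular to the enzymes.

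**Figure D5:**
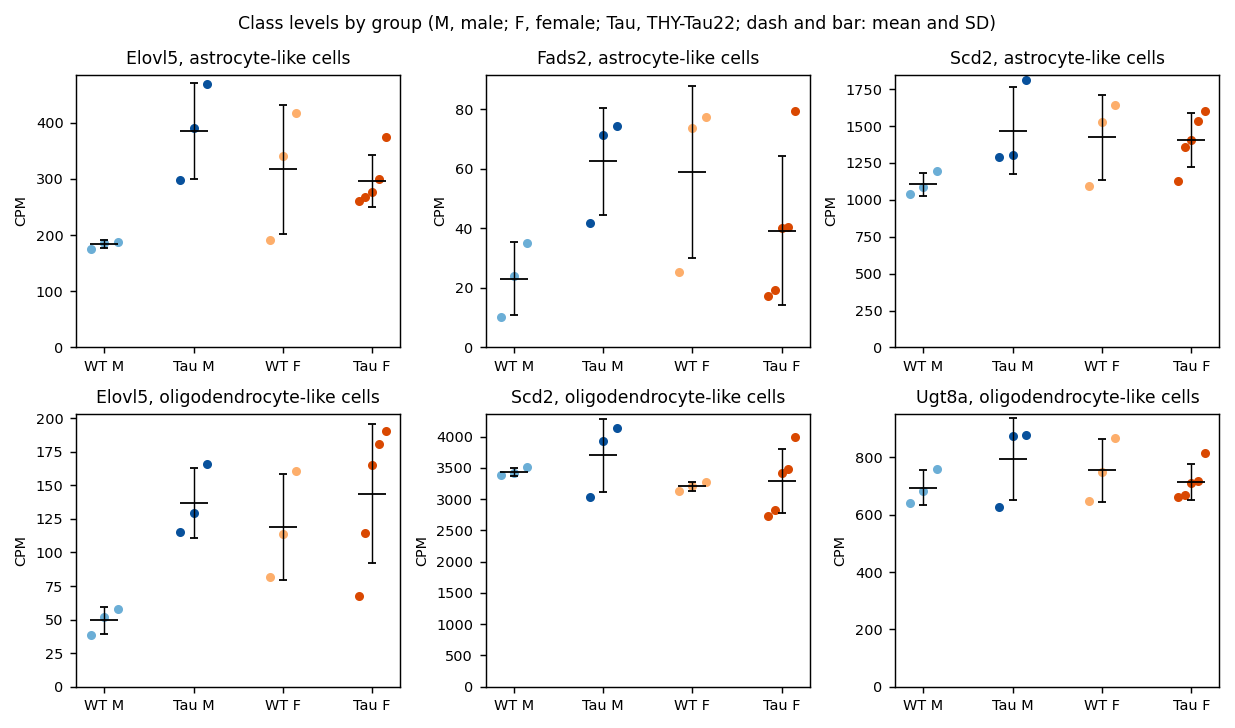
CPM (y axis, linear, from 0) of *Elovl5*, *Fads2* and *Scd2* in astrocyte-like cells and of *Elovl5*, *Scd2* and *Ugt8a* in oligodendrocyte-like cells in the 4 groups, with 1 point per library and the mean ± SD (n = 3, 3, 3 and 5). In astrocyte-like cells *Elovl5* was at 175 to 188 CPM in WT males and 297 to 468 CPM in THY-Tau22 males, while *Scd2* and *Ugt8a* in oligodendrocyte-like cells overlap between genotypes.

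In the other classes *Scd2* could be tested, at levels just over or within the range of the oligodendrocyte markers in microglia-like and endothelial-like cells. In microglia-like cells its log2 fold change was 0.54 ± 0.40 in males and -0.64 ± 0.35 in females, with a male minus female difference of 1.18 ± 0.53 (edgeR adjusted p = 0.307). THY-Tau22 male replicate 3 stood at 267 CPM against 92.4 and 54.8 in the other THY-Tau22 males, and without it the male value turned to -0.38 ± 0.40 and the difference became 0.26 ± 0.50. WT female replicate 2 stood at 253 CPM against 99.4 and 115 in the other WT females, and without it the female value was -0.19 ± 0.38 and the difference 0.71 ± 0.53. In neuron-like cells these were 0.63 ± 0.41, -0.81 ± 0.39 and 1.45 ± 0.57 (adjusted p = 0.759 for the last). WT female replicate 2 stood at 838 CPM there, from 20 UMIs in 27 cells with 35% of them in 1 cell, against 233 and 363 CPM in the other WT females and 139 to 390 CPM in THY-Tau22 females. Without it the female value was -0.43 ± 0.41 and the difference 1.04 ± 0.56. Without THY-Tau22 female replicate 3 the female value was -0.60 ± 0.39. The unadjusted p of *Scd2* was under 0.05 for the difference in microglia-like cells (14.4% of all genes), and in neuron-like cells for the difference (5.71%) and for females (3.07%). *Elovl7* in endothelial-like cells, where its mean was close to that of oligodendrocyte-like cells, had log2 fold changes of 0.40 ± 0.28 in males and 0.13 ± 0.26 in females (adjusted p = 0.502 and 1.000). *Scd2* in OPC-like cells had 0.16 ± 0.33 and -0.19 ± 0.30.

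The other genes of these pathways, 69 in 8 lists (68 present in the tables), gave 60 tested genes in all cells, 27 in oligodendrocyte-like and 31 in astrocyte-like cells. None was called by edgeR in any level or contrast. In all cells of males 12 had an unadjusted p under 0.05 with higher and 1 with lower values in THY-Tau22, and none did in females, where 15.4% and 1.74% of all genes had one in either direction. In males the median log2 fold change was 0.47 for the 4 tested genes of galactolipid breakdown, 0.46 for the 9 of the elongation cycle, 0.39 for the 9 acyl-CoA synthetases and carriers, and 0.30 for the 9 lipogenic regulators. It was 0.27 for the 5 other desaturases, 0.12 for the 13 genes of sphingolipid and sulfatide synthesis, and 0.03 for both the 7 of malonyl-CoA supply and the 4 of ether lipid synthesis, beside 0.01 for all genes. In females the 8 medians ran from -0.20 to 0.05, beside -0.01 for all genes. The pair with the smallest p in all cells of males were *Fabp7*, a fatty acid carrier of astroglia, at 45.7 ± 12.0 CPM in WT and 103 ± 28.8 in THY-Tau22 mice (log2 fold change 1.00 ± 0.32, adjusted p = 0.234), and *Mid1ip1*, which encodes an activator of acetyl-CoA carboxylase, at 113 ± 11.8 and 214 ± 47.2 CPM (0.74 ± 0.24, adjusted p = 0.234). In all cells of females they were *Acsl4* (0.43 ± 0.23) and *Ormdl2* (-0.68 ± 0.39, adjusted p = 1.000 for both), and over the sexes *Hacd4* (0.65 ± 0.24) and *Fabp7* (0.52 ± 0.21, adjusted p = 0.946 for both). In the male minus female difference they were *Hacd2*, a dehydratase of the elongation cycle (1.59 ± 0.49), and *Mlycd*, which encodes malonyl-CoA decarboxylase (2.10 ± 0.69, adjusted p = 0.291 for both).

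In oligodendrocyte-like cells of males the pair were *Fabp5*, another fatty acid carrier, at 174 ± 58.5 CPM in WT and 393 ± 185 in THY-Tau22 mice (1.00 ± 0.33, edgeR adjusted p = 0.134), and *Tecr*, the last enzyme of the elongation cycle, at 97.5 ± 13.0 and 236 ± 115 CPM (1.04 ± 0.37, adjusted p = 0.152). The same pair led over the sexes, at 0.58 ± 0.23 and 0.60 ± 0.25 (adjusted p = 0.896 for both). In females they were *Hacd2* (-0.81 ± 0.43) and *Sptlc2*, a subunit of serine palmitoyltransferase (-0.81 ± 0.53, adjusted p = 0.997 for both). In the male minus female difference they were *Hacd2* (1.87 ± 0.71, adjusted p = 0.185) and *Hsd17b12* (1.15 ± 0.45, adjusted p = 0.199).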

How the data were processed

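Cortex of 1 hemisphere was dissociated fresh and processed by Drop-seq, in which each read of 60 bases is tied to a cell barcode and a UMI at the 3′ end of an RNA. The authors deposited whole UMI counts for each gene in each barcode, made with the Drop-seq pipeline on mm10; its version and annotation were not given in the sources used here, nor how the 3000 barcodes of a table were chosen. Counting is at the 3′ end, so levels are compared between classes or groups and not between genes.

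The members, gene lists and tests were chosen with earlier results of these data known. Barcodes with 200 to 7000 detected genes were kept. No mitochondrial limit was set, and doublets (5.62% by Scrublet in scanpy 1.11.5) were kept, with both as alternatives. Clustering used 2500 variable genes, 19 principal components, 20 neighbours and Leiden (leidenalg 0.10.2) at resolution 0.5, and gave 17 clusters, of which 6 stayed unnamed, with 1788 cells in all. A name needed at least 3 detected markers and a mean marker log2 enrichment of at least 1.5, a limit set after the clusters were seen. Class names were rebuilt here and may differ from the study's. UMIs were summed per mouse and level and tested by the edgeR 4.0.16 quasi-likelihood test (R 4.3.3; TMM scaling, filterByExpr, 1 mean per group), with Benjamini-Hochberg adjustment over all genes tested. DESeq2 1.42.0 was an alternative. Fold changes are log2, THY-Tau22 over WT. Their SE is approximate: the absolute log2 fold change divided by the square root of the F value of the edgeR test. Nearby classes were compared by exact two-sided sign-flip permutation tests over libraries, adjusted over 50 pairs, and shares by exact two-sided permutation tests, which cannot go below 0.1 for 3 against 3 or 0.0357 for 5 against 3. Correlations used 100000 permutations. The edgeR step was tested on simulated data. Replicate numbers are names and pair no mice. An animal number in the titles is shared by WT male replicate 1 and by the first THY-Tau22 female. Named pathway genes are those called, or else the 2 with the smallest p in all cells and in oligodendrocyte-like cells. Intervals cover counting error only. A gene among those most like *Ugt8a* and *Fa2h* is not reported here.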

Additional observations from a re-analysis of the deposited data

Results flagged for a closer look

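In 4 cases, values of THY-Tau22 females, the only group of more than 3 libraries, lay apart from the other 4 libraries by a gap larger than Dixon's 95% limit of 0.710 of the group's range, among 30 gene and level combinations examined; chance alone gives about 1 in 20. *Elovl7* in oligodendrocyte-like cells was 159 CPM (26 UMIs) in THY-Tau22 female replicate 2, against 215 to 235 CPM in the others. *Elovl7* in astrocyte-like cells was 31.9 CPM in the same library, from 5 UMIs, against 0 to 4.92 CPM. *Fa2h* in astrocyte-like cells was 8.96 CPM in THY-Tau22 female replicate 1, from 2 UMIs, and *Ugt8a* there was 4.48 CPM, from 1 UMI. The last 3 rest on at most 5 UMIs each. None of the enzymes had a male minus female difference past the edgeR test or every library of one sex moving against every library of the other, over the levels tested.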

How the results depend on the processing

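No paired analysis was possible because replicate numbers only follow accession order, and the shared animal number ties 1 WT male to 1 THY-Tau22 female, groups that are not compared with each other. The title tag, which both female genotypes share, was run as a term in the fit, an alternative added after the data were seen. It called no enzyme, and 3 other pathway genes in astrocyte-like cells of males and 3 in the male minus female difference there. The 28 counts of enzymes called stayed at 0 in 725 alternative counts and moved in 3. These 3 concern the male minus female difference. In all cells 1 enzyme (*Elovl5*) was called without both MB22 libraries, and 0 to 2 when each library was left out in turn, with 2 (*Elovl1* and *Elovl5*) without WT female replicate 3. In astrocyte-like cells the range was 0 to 1 (*Fads2*, without the same library). Of the other pathway genes, none was called with the main settings. Without the low count filter 5 were called in all cells of males, 3 in their male minus female difference and 2 in astrocyte-like cells of males. DESeq2 called 1 in astrocyte-like cells of males and 1 in the male minus female difference there. Without both MB22 libraries 3 were called in astrocyte-like cells of males, and for the male minus female difference 4 in all cells, 1 in oligodendrocyte-like, 6 in astrocyte-like and 1 in microglia-like cells. Leaving out each library gave ranges for that difference of 0 to 9 in all cells, 0 to 5 in oligodendrocyte-like, 0 to 7 in astrocyte-like and 0 to 1 in microglia-like cells, each highest without WT female replicate 3. In astrocyte-like cells of males the range was 0 to 3, highest without WT female replicate 2. The share of all genes called under these alternatives is not given here, so these counts show nothing particular to the enzymes or their pathway. *Scd2* in microglia-like cells of males ran from -0.38 without THY-Tau22 male replicate 3 to 0.92. With CPM scaled as in edgeR, an alternative chosen after seeing the data, male groups did not overlap for 1 enzyme in oligodendrocyte-like and 3 in astrocyte-like cells. Of all genes, 26.8% and 26.6% did not overlap there in either direction, and 13.6% and 13.1% with THY-Tau22 higher, as these enzymes were. With at least 500 genes a cell, which left 6342 cells, the log2(CPM + 10) differences between classes became 0.24 for *Scd1* (oligodendrocyte-like minus astrocyte-like) and 0.89 for *Fads2* (astrocyte-like minus OPC-like), no longer past the test, 1.18 for *Fasn* (astrocyte-like minus OPC-like), now past it, and -0.20 for *Elovl7* (endothelial-like minus oligodendrocyte-like). There r with the oligodendrocyte-like share became 0.790 for *Scd1*, 0.882 for *Scd2*, 0.572 for *Fasn*, 0.685 for *Elovl1*, 0.583 for *Elovl5*, 0.0523 for *Elovl7*, 0.625 for *Fads2* and 0.727 for *Fa2h*. Leaving out each library gave r of -0.18 to 0.53 for *Scd1*, 0.18 to 0.72 for *Scd2*, -0.35 to 0.0545 for *Fasn*, -0.17 to 0.30 for *Acaca*, -0.11 to 0.10 for *Elovl5*, 0.36 to 0.69 for *Elovl7* and 0.47 to 0.85 for *Ugt8a*, with the lowest of *Scd2*, *Elovl7* and *Ugt8a* without THY-Tau22 male replicate 1. The difference in oligodendrocyte-like share in females ran from -1.89 to 2.12 percentage points, lowest without WT female replicate 3 and highest without WT female replicate 1. The cause was not tested for any of these. Among fold changes of single enzymes farther than 1 SE from 0, 1 of 898 alternative values changed sign. Depth limits the low genes: in the class where each was highest, *Acaca* had 113 UMIs and *Fads2* 118 over the 14 libraries.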
